A study of Mus musculus with 2 samples.

Results

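The 8 genes described here encode receptors that steer blood cells between the bone marrow, the circulation and the lymphoid organs: the chemokine receptors Cxcr4, Cxcr2, Cxcr3, Ccr1, Ccr2, Ccr7 and Ccr9, and the sphingosine 1-phosphate receptor S1pr1. They were chosen by name. Every probe set to which the platform annotation gave exactly 1 gene symbol, and whose symbol was one of these, was taken, which yielded 16 probe sets of 34945 and all 8 genes of 18193 measured. The RNA came from cells described as LSK Flt3-, wild-type C57BL6J mouse marrow cells without lineage markers, with Sca-1 and high c-Kit and without Flt3, a fraction rich in haematopoietic stem cells. Both groups consisted of such cells after gene transfer. In the control group the transferred gene was GFP, and in the other group it was Satb1, a gene for a chromatin organiser that attaches to AT-rich stretches of DNA. Each group had 1 array made from 250 ng of total RNA, so no replicate spread, error or p-value can be given for any difference below. The sources used here do not state the time after gene transfer, the age of the mice, the vector or whether animals or cultures were pooled.

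These receptors couple mainly to inhibitory G proteins and turn a gradient of ligand into directed movement. Cxcr4 binds Cxcl12, which stromal cells of the marrow secrete, and this pair holds stem cells and immature leukocytes in the marrow. S1pr1 acts in the other sense, since sphingosine 1-phosphate is abundant in blood and draws cells that carry S1pr1 out of the tissue. Cxcr2 promotes the release of neutrophils and Ccr2 that of monocytes, Ccr7 and Ccr9 help progenitors to reach the thymus, Cxcr3 guides activated T and NK cells, and Ccr1 is a receptor of myeloid cells for inflammatory chemokines.

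Values are MAS5 intensities, in which the probe pairs of a probe set are combined into a single number on a linear scale. The median of all deposited intensities, 61.7, served as a floor for lower readings, and a fold against a floored value is a lower bound. Of the 45037 probe sets, the GFP array had 50.7% above the floor and the Satb1 array 49.2%. The arrays had a Pearson correlation of 0.986 over the 21336 probe sets above the floor on both, which are not independent replicates. The transferred gene did not read higher on the array bearing its name: the brightest Satb1 probe set gave 1116 on the GFP array and 909 on the Satb1 array. The other Satb1 probe sets gave 964 and 908, 288 and 165, 81.4 and 30.5, and 27.8 and 18.5, in the same order. The sources used here do not say whether these probe sets lie in the transferred sequence, so every direction rests on the labels alone. Of the genes behind the cells' definition, Kit read 3293 and 3388 by its brightest probe set and 232 and 174 by the other. Flt3, whose protein was used to exclude cells, read 1390.4 and 1334. Of other surface marker genes of stem and progenitor cells, not part of that definition, Cd34 read 8563 and 8197, Cd48 3225 and 2908 and Procr 133 and 125. Slamf1 was 2.43-fold higher on the array labelled Satb1, at 95.7 and 233, but its other 2 probe sets did not reach the floor. Ly6a, which encodes Sca-1, was not analysed here.

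Transcripts of 6 of the 8 receptors were above the floor on both arrays, and 5 of these 6 were lower on the array labelled Satb1. Cxcr2 was the single receptor at least 2-fold apart, and S1pr1 was the single receptor above the floor that read higher. By comparison, 1.13% of the 11048 genes above the floor on at least 1 array were at least 2-fold apart, 0.860% being lower and 0.272% higher, while 54.8% were lower and 45.2% higher by any amount. The median log2 difference, Satb1 minus GFP, was -0.29 over the 8 receptors, with the receptors under the floor counted at 0. It was -0.40 over the 6 above the floor, with Ccr9 counted by a probe set that may not be specific, against -0.02 over all genes above the floor. The latter varied with mean intensity. It was -0.12 at 100 to 200 (the range of Cxcr2, Ccr9 and S1pr1) and -0.08 at 200 to 500 (Ccr1). At 500 to 2000 (Cxcr4) it was -0.03, and over 2000 (Ccr2) 0.03. Neither Cxcr3 nor Ccr7 reached the floor on either array. Of the 10 receptor probe sets above the floor on at least 1 array, 8 were lower and 2 higher, where 52.7% of all such probe sets with 1 gene were lower. Since bulk RNA was measured, fewer cells that carry a receptor and less of its RNA per cell cannot be told apart, and surface protein was not measured.

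**Figure D1:**
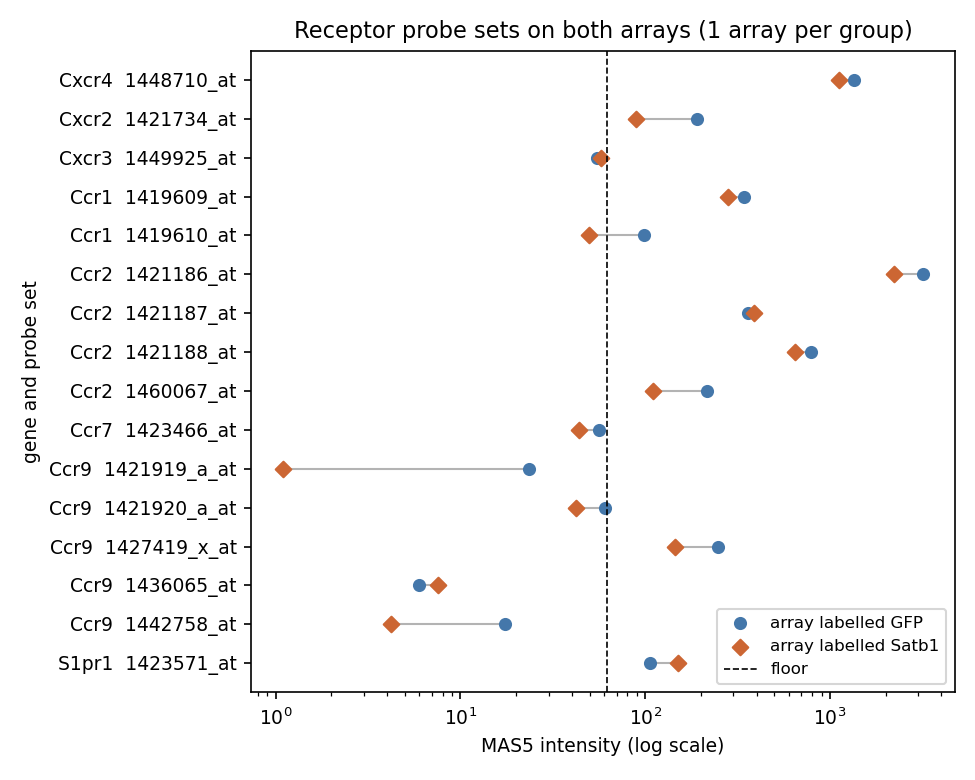
MAS5 intensity (log axis) of each of the 16 receptor probe sets on the array labelled GFP (circles) and the array labelled Satb1 (diamonds), with the floor of 61.7 as a dashed line. Cxcr4, Cxcr2, both Ccr1 probe sets and 3 of the 4 Ccr2 probe sets lie further left on the Satb1 array, S1pr1 lies further right, and 4 of the 5 Ccr9 probe sets lie below the floor on both arrays.

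The retention receptor and the exit receptor differed in opposite directions, each by less than 2-fold. Cxcr4 read 1354 on the GFP array and 1115 on the Satb1 array by its single probe set. It was thus 1.21-fold lower, a log2 difference of -0.28. Of the 4039 genes with a mean intensity of 500 to 2000, 11% were lower by at least as much and 16.7% were as far from 0 in either direction. S1pr1, also measured by 1 probe set, read 106.2 on the GFP array and 149.6 on the Satb1 array, 1.41-fold higher, with a log2 difference of 0.49. Both S1pr1 values are dim. Of the 1190 genes with a mean intensity of 100 to 200, 7.65% were higher by at least as much and 23.9% were as far from 0 in either direction, with an SD of 0.44 over their log2 differences.

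Cxcr2, the receptor that neutrophils use to leave the marrow, differed most. Its single probe set read 190.0 on the GFP array and 88.8 on the Satb1 array. This was a 2.14-fold difference, or -1.10 on the log2 scale, and both values were above the floor. Of the 1190 genes in the intensity range of 100 to 200, 1.60% were lower by at least as much, 2.44% were as far from 0 in either direction and 3.78% were at least 2-fold apart. After quantile normalization of the arrays the Cxcr2 difference was -0.94, just under 2-fold.

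Ccr2, the receptor of inflammatory monocytes and of some early progenitors, was represented by 4 probe sets, all above the floor on both arrays. The brightest read 3172 on the GFP array and 2221 on the Satb1 array, 1.43-fold lower with a log2 difference of -0.51. In this bright range differences were small: of the 2570 genes with a mean intensity over 2000, 1.01% were lower by at least as much and 1.56% were as far from 0 in either direction. The other Ccr2 probe sets read 792 and 649 (log2 difference -0.29), 215 and 109.6 (-0.97), and 361 and 386 (0.10). So 3 probe sets were lower and 1 slightly higher, and they did not share a size of difference. Between probe sets of the same gene, the SD of the log2 difference was 0.19 at intensities over 2000 and 0.22 at 500 to 2000. It was 0.28 at 200 to 500 and 0.35 at 100 to 200, the range of the probe set at -0.97.

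Both Ccr1 probe sets were lower on the array labelled Satb1. The brighter read 343 and 279.8, 1.23-fold lower, with a log2 difference of -0.29. The dimmer read 98.0 and 49.4, at least 1.59-fold lower because the Satb1 value lies under the floor. The difference of the brighter probe set was about as large as the SD of 0.28 between probe sets of the same gene at that intensity, and 20.6% of the 1982 genes with a mean intensity of 200 to 500 were lower by as much (30.1% as far from 0 in either direction).

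The thymus-homing receptors gave little measurable signal. Ccr7 read 56.2 on the GFP array and 44.0 on the Satb1 array, both under the floor. Ccr9 was above the floor by 1 of 5 probe sets, which read 246 and 145.5, 1.69-fold lower with a log2 difference of -0.76. That probe set is of a kind (suffix _x_at) whose probes can match transcripts of other genes. The other 4 Ccr9 probe sets read at most 60.7 on the GFP array and 42.4 on the Satb1 array, so the Ccr9 difference rests on the probe set that may not be specific. With probe sets that match a single transcript alone, Ccr9 was under the floor on both arrays. Cxcr3 was also under the floor, at 54.5 and 57.9.

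**Figure D2:**
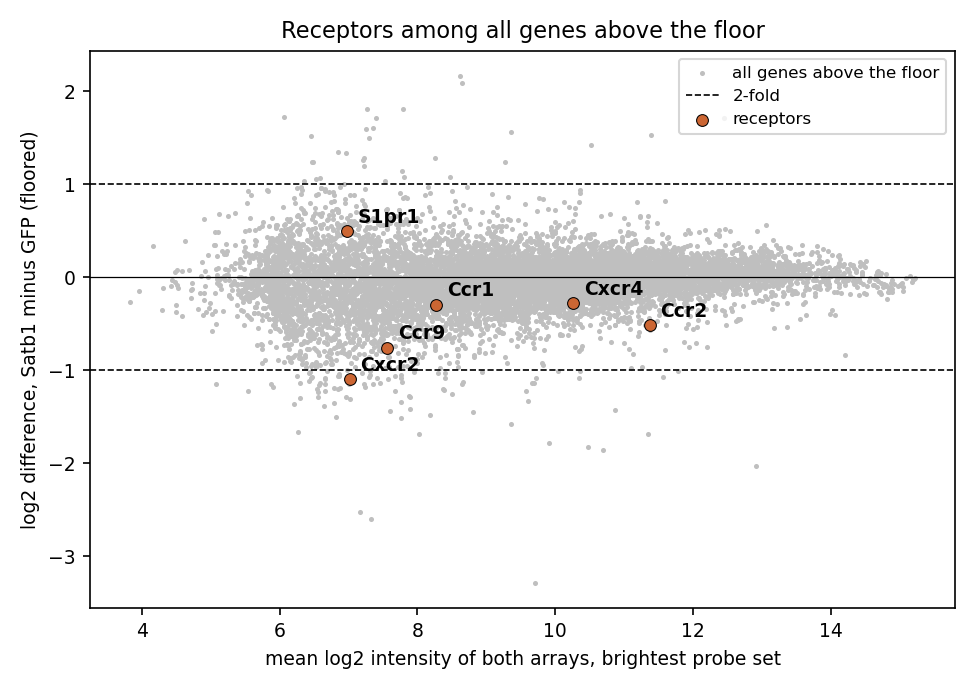
Log2 difference, Satb1 minus GFP, after flooring, against the mean log2 intensity of both arrays, for every gene above the floor on at least 1 array (grey) and the 6 receptors among them (orange). Dashed lines mark 2-fold. Cxcr2 lies just past the lower line at -1.10, Ccr2 at -0.51 lies at the lower edge of the bright genes, and S1pr1 at 0.49 is the single receptor above 0.

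The start regions of these genes were read to show what DNA precedes them, since Satb1 binds AT-rich DNA. RefSeq (GRCm38.p6) gave a window for 6 of the 8 genes, all but Ccr7 and S1pr1, and the 250 bases before the start were used. The median AT content of the 32851 windows of 27025 genes was 47.6%. The windows of Cxcr4 (38.8%) and Cxcr2 (45.6%) were below it. Those of Ccr9 (49.6%), Cxcr3 (52.0%), Ccr1 (56.4%) and Ccr2 (62.8%) were above it, the Ccr2 window being richer in AT than 92.1% of all windows. The receptors that were lower on the array labelled Satb1 had windows on both sides of the median. A link between AT content and the receptor differences was not tested. The 3 windows below are shown because they belong to the retention receptor, to the receptor that differed most and to a receptor of the chromosome 9 cluster. They lie at chr1:128592300-128592549 (minus strand, Cxcr4), chr1:74153744-74153993 (plus strand, Cxcr2) and chr9:123968693-123968942 (minus strand, Ccr1), and capitals mark the motifs named after them.
Cxcr4: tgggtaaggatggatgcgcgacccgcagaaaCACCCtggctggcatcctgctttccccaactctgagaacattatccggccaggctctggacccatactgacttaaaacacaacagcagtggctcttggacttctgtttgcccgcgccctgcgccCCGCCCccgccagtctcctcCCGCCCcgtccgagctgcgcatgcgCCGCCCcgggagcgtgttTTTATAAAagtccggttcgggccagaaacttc
Cxcr2: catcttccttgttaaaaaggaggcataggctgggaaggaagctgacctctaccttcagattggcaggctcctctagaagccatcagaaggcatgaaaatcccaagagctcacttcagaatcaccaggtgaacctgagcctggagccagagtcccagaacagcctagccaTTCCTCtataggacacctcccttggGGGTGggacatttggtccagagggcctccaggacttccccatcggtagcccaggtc
Ccr1: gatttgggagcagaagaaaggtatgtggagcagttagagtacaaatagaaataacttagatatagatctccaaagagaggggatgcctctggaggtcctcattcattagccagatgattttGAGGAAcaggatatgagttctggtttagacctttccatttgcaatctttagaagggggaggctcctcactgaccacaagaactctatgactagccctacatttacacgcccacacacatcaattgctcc

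Altogether 5 motifs were searched on both strands: GAGGAA, the core bound by the myeloid factor PU.1; CACCC, bound by Krüppel-like factors; the GC box GGGCGG; the TATA box TATAAA; and the AT-rich run AATATA. The Cxcr4 window held 3 GC boxes, 1 CACCC and TATAAA on both strands in overlapping letters, 32 and 30 bases before the start. The Cxcr2 window held GAGGAA on the reverse strand 81 bases and CACCC on the reverse strand 56 bases before the start. The Ccr1 window held GAGGAA 129 bases before the start. Among all 6 windows, GAGGAA was in 3 (Cxcr2, Cxcr3 and Ccr1) and in 23.3% of all windows of that length. CACCC was in 3 (Cxcr4, Cxcr2 and Ccr9) and in 52.0% of all windows. The GC box and the TATA box were in that of Cxcr4 alone, and in 32.7% and 12.4% of all windows. AATATA was in 0 of the 6 and in 8.2% of all windows. These matches describe letters in a short stretch and do not show that a protein binds there.

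Ccr9, Ccr1 and Ccr2 lie close together on chromosome 9, in a cluster with other chemokine receptor genes. This stretch was looked at after the receptor values were known. From Lztfl1, the gene before Ccr9, to Ccr2, the annotation lists 9 protein-coding genes, all measured, of which 5 were above the floor. The receptor genes Cxcr6, Xcr1, Ccr1l1 and Ccr3 did not reach the floor on either array. The 3 receptors above the floor were all lower on the array labelled Satb1, as were 54.8% of all genes above the floor. Their log2 differences were -0.76 (Ccr9), -0.29 (Ccr1) and -0.51 (Ccr2). The Ccr9 value is that of the _x_at probe set and is 0.00 with single-transcript probe sets, and the Ccr1 value is about the SD of 0.28 between probe sets of the same gene. Of the genes between and beside them that do not encode receptors, Fyco1, an adaptor for vesicle transport, read 513 and 471 (-0.12). Lztfl1, a regulator of traffic to the cilium, read 1070 and 1197 (0.16).

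**Figure D3:**
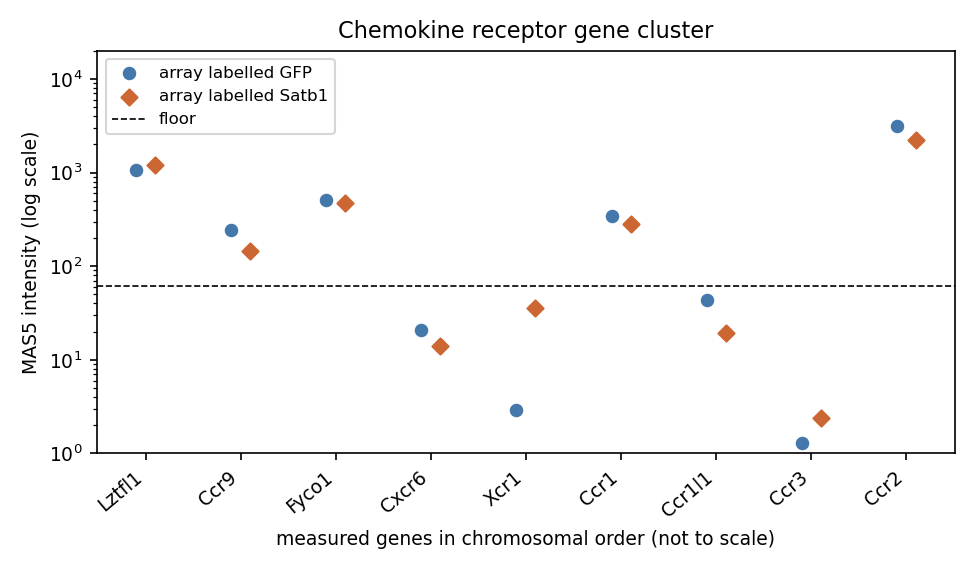
MAS5 intensity (log axis) on the array labelled GFP (circles) and the array labelled Satb1 (diamonds) for the 9 measured genes from Lztfl1 to Ccr2, in their order along chromosome 9 with distances not drawn, and the floor as a dashed line. Ccr9, Fyco1, Ccr1 and Ccr2 are lower on the Satb1 array, Lztfl1 is higher, and the other 4 genes lie below the floor.

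The relatives of these receptors did not share a direction. Of 14 other chemokine receptor genes measured, 7 exceeded the floor, 0 differed by 2-fold, 4 were higher and 3 lower, with a median log2 difference of 0.01. For comparison, 1.13% of all genes above the floor differed by 2-fold. The largest differences were those of Ackr1, an atypical receptor that binds chemokines without G protein signalling, at 258 and 142 on the GFP and Satb1 arrays (-0.86), and of Ccr6, a receptor of lymphocytes, at 87.1 and 145 (0.74). Ackr3, the second receptor of Cxcl12, was below the floor at 7.9 and 1.8. Cxcr1, the nearest relative of Cxcr2, was not analysed here. Among the other sphingosine 1-phosphate receptors, S1pr5 was below the floor. S1pr2, which opposes migration, read 251.5 and 250.0 (-0.01 as deposited, and 0.11 after quantile normalization), with a second probe set at 135 and 104. S1pr3 read 1092 and 954 (-0.19) and S1pr4, a receptor of blood cells, 775 and 838 (0.11). S1pr1 therefore had the largest difference of the 4 sphingosine 1-phosphate receptors above the floor, on a dim probe set.

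Ligand transcripts in the same RNA were compared next. Of 23 genes of chemokines and related ligands, 14 exceeded the floor and 0 differed by 2-fold, with 7 higher, 7 lower and a median of 0.02. Among all genes above the floor, 1.13% differed by 2-fold. After quantile normalization 10 were higher and 4 lower. Cxcl12, the chemokine ligand of Cxcr4, was below the floor by all 3 of its probe sets, which read at most 4.9 on the GFP array and 23.3 on the Satb1 array. Mif, also counted in this list, read 19254 and 19944 (0.05) by its brightest probe set. Among ligands of Cxcr2, Ppbp, a platelet chemokine precursor, read 1752 and 3075 (0.81), and Cxcl1 read 180 and 112 (-0.68) by a probe set of the _x_at kind, with its other 2 probe sets below the floor. Cxcl2 read 93.5 and 139 (0.57) and Cxcl3 58.7 and 72.3 (at least 0.23), while Cxcl5 was below the floor at 19.3 and 18.7. Of 16 genes of sphingosine 1-phosphate metabolism and transport, 13 were above the floor, 0 were 2-fold apart, 9 were higher and 4 lower, with a median of 0.05. The ceramide synthase gene Cers4 read 543 and 396 (-0.46), and its other 2 probe sets were lower too. The ceramidase gene Asah1, whose product releases sphingosine, read 3914 and 4684 (0.26).

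The signalling genes downstream differed by less than 2-fold, as did all but 1.13% of all genes above the floor. Of 26 genes of the G proteins and of the kinases and GTPases they act on, 25 were above the floor, 0 were 2-fold apart, and the log2 differences of the brightest probe sets ran from -0.31 to 0.24 around a median of 0.00. Over all 58 probe sets of these genes above the floor they ran from -0.72 (Dock2) to 0.61 (Gna13), and 0 were 2-fold apart. Gna13, a G protein of the RhoA pathway named after its values were seen, was higher by all 7 of its probe sets as deposited, from 0.00 by the brightest to 0.61. After quantile normalization the brightest was at -0.03. The inhibitory G protein gene Gnai2 read 6603 and 6637 by its brightest probe set and 3803 and 4957 by the other. The phospholipase gene Plcb2 read 350.5 and 283 (-0.31). Rhoa, a GTPase that controls contraction of the cell rear, read 7493 and 8848 (0.24) by its brightest probe set. Another Rhoa probe set read 6962 and 7244 (0.06). Of 14 receptor kinases, arrestins and RGS proteins, which switch off receptors or their G proteins, 12 exceeded the floor and 0 differed by 2-fold, with a median of 0.06. Grk3, a kinase that desensitises Cxcr4, was lower by all 3 of its probe sets, at 886 and 563 (-0.65) by the brightest and -0.31 and -0.34 by the others. Rgs10, which speeds the shut-off of inhibitory G proteins, read 1042 and 1419 (0.45). Grk6 read 4048 and 4244 (0.07), Arrb2 2019 and 1964 (-0.04, with a second probe set at 0.13) and Rgs1 1926 and 1716 (-0.17). Grk2 was not analysed here.

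Among 11 genes listed for regulation of these receptors, all were above the floor, 1 was 2-fold higher and 0 were 2-fold lower. Of all genes above the floor, 0.272% were 2-fold higher and 0.860% 2-fold lower. By any amount 6 of the 11 were higher and 5 lower, with a median of 0.11. Klf2, a transcription factor that activates S1pr1 in T cells, read 130 and 265 by its single probe set, 2.05-fold higher. It stayed past 2-fold after quantile normalization. In its dim range, mean intensities of 100 to 200, 3.78% of genes were at least 2-fold apart in either direction. Of other listed genes, Egr1 read 963 and 1806 (0.91). Foxo1 read 265 and 180 (-0.56) by its brightest probe set, with others above the floor at -0.01 and 0.12. Cd69, whose protein removes S1pr1 from the cell surface, read 1528 and 1813 (0.25). A link between these genes and the S1pr1 level was not tested.

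**Figure D4:**
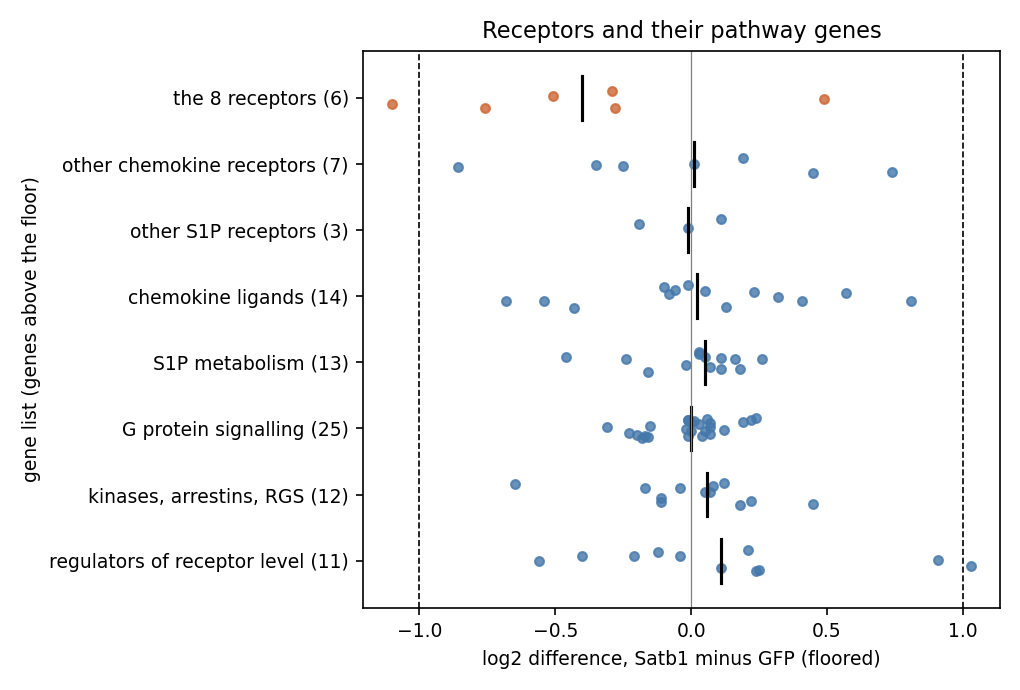
Log2 difference, Satb1 minus GFP, after flooring, of each gene above the floor in the 8 receptors (orange) and 7 lists of related genes (blue). The number of genes is in brackets, black bars mark medians and dashed lines 2-fold; points are spread vertically for legibility. The receptors' median is -0.40 and the medians of the other lists drawn lie between -0.01 and 0.11. Lists of cell type genes, not drawn, had medians of 0.31 (neutrophil and monocyte) and -0.84 (mast cell, basophil and eosinophil). Within the former list, the monocyte genes Csf1r and Cd14 were lower, at -0.21 and -0.38. Those of T and NK cell genes and of B and plasmacytoid dendritic cell genes were -0.51 and -0.19.

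Because each receptor marks certain blood cells, genes of those cells are given beside the receptors. Of 16 neutrophil and monocyte genes measured, 15 were above the floor, with 5 at least 2-fold higher and 2 at least 2-fold lower. Over all genes above the floor these shares were 0.272% and 0.860%, but the lists were chosen with earlier results of these data known. Their summed intensity was 35524 on the GFP array and 42844 on the Satb1 array, and 30852 and 28196 without S100a8 and S100a9, so the direction of the sum rests on those genes. Among the higher were Camp (186.5 and 834), S100a8 (3094 and 10109) and Ltf (93.2 and 306), genes of neutrophil antimicrobial proteins, and the lower were Ms4a3, a gene of granulocyte and monocyte progenitors (2609 and 269), and Csf3r, the G-CSF receptor gene of neutrophils (1239 and 494), which was chosen with its value in view. S100a9 (1578 and 4539) and Lcn2 (381 and 1123) were the other genes 2-fold higher. By less, Elane (log2 difference 0.72), Ngp (0.93) and Mmp8 (0.31) were higher and Mpo (-0.16) lower. Itgam (-0.08) was nearly equal, and Mmp9 was below the floor. Csf1r (-0.21 by its brightest probe set) and Cd14 (-0.38), genes of monocytes, were lower, and Fcgr3 was at 0.02. Beside the lower Cxcr2, Camp, Ltf, Lcn2, S100a8, S100a9 and Ngp were thus higher, while Ms4a3 and Csf3r were lower. Of 10 mast cell, basophil and eosinophil genes, 7 were above the floor, with 1 higher and 3 lower by 2-fold. Their summed intensity was 14543 and 9054, and 2472 and 2259 without Mcpt8 and Cpa3. Prg2 was higher (194 and 825), and Fcer1a (397 and 65.4), Mcpt8 (4653 and 1449) and Ms4a2 (1227 and 559.8) were lower.

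Lymphoid genes bear on Cxcr3, Ccr7 and Ccr9. Of 11 T and NK cell genes measured, 5 were above the floor, 0 were 2-fold higher and 2 were 2-fold lower. These 2 were Gzmb (3162 and 875) and Nkg7 (2667 and 754), which encode cytotoxic granule proteins. Of all genes above the floor, 0.272% were 2-fold higher and 0.860% 2-fold lower. The summed intensity of the 11 genes was 6337 and 2084, and 508 and 456 without Gzmb and Nkg7, with 6 of the 11 below the floor. The T cell genes Cd3e, Cd3d, Cd3g, Cd4 and Cd8b1 and the NK cell gene Ncr1 were below the floor on both arrays. Cd8a, also a T cell gene, read 88.9 and 147 (0.73) by a probe set of the _x_at kind. All other Cd8a probe sets were below the floor. Of 10 B cell and plasmacytoid dendritic cell genes, 6 exceeded the floor and 0 differed by 2-fold, with summed intensities of 9295 and 8143. Ly6d, a gene of lymphoid progenitors, read 284 and 174 (-0.70) and Bst2 1564 and 1107 (-0.50), while Cd79a, Ms4a1, Pax5 and Ebf1 were below the floor. The part of any of these cell types in the receptor differences was not tested.

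**Figure D5:**
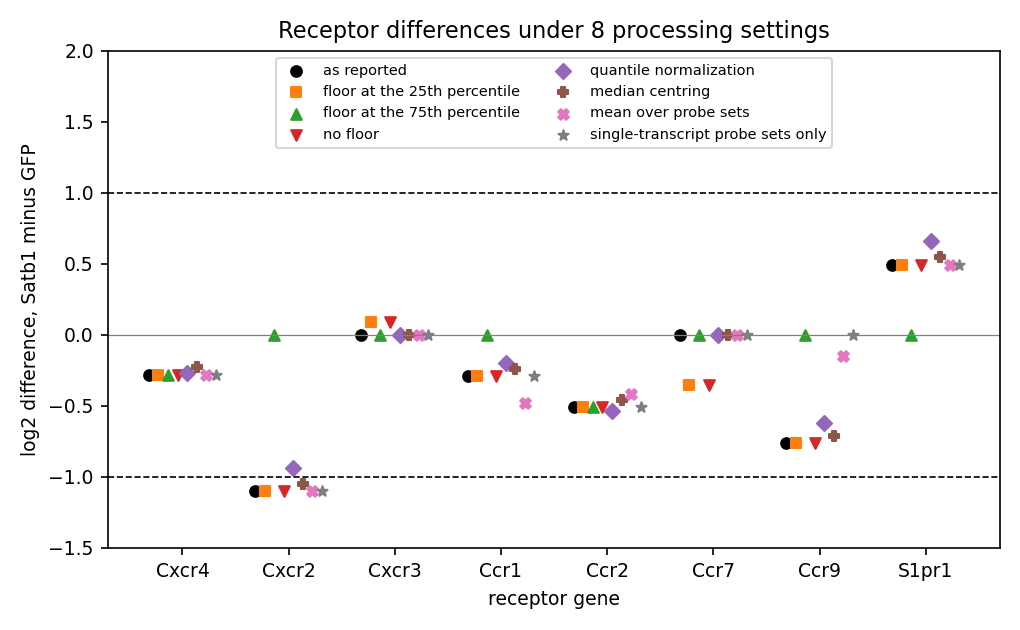
Log2 difference, Satb1 minus GFP, of each receptor as reported (black circle) and under 7 other processing settings (coloured symbols), with 2-fold as dashed lines. Cxcr4 and Ccr2 stay between -0.23 and -0.54 in every setting shown, Cxcr2 is -0.94 after quantile normalization, and Cxcr2, Ccr1, Ccr9 and S1pr1 are at 0 with the floor at the 75th percentile because both of their values are then floored.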

How the data were processed

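RNA of 2 samples, 1 per group, was profiled on Affymetrix arrays. The deposited intensities were made by the authors with MAS5, per the submitters' processing notes; the version and target of its scaling are not stated there. Trimmed by 2% at either end, the intensities averaged 497 on each array. Of 45037 probe sets, 34945 had 1 gene symbol, 932 several and 9160 none in the platform annotation. Symbols were updated by Entrez ID (34741 matched) to the RefSeq genes of GRCm38.p6, whose order along chromosomes was also used. Intensities were taken to log2 without further scaling and floored at their median. A gene was represented by its brightest probe set, and called at 2-fold. No test was possible with 1 array per group. Arrays have no read depth, and their number limits the precision. The members and gene lists were chosen with earlier results of these data known. Genes named are mainly all receptors, the Satb1 probe sets, the genes of the cell definition and of other stem cell markers, and direct partners of a receptor. Per list, up to 4 genes past 2-fold or otherwise the 2 furthest apart were added, as were further members of some marker and regulator lists. Levels of different probe sets are not comparable, so no receptor was ranked by intensity. Some genes are not reported here. Floor, scaling, probe set rule and threshold were varied. Scripts (Python 3.11.15, pandas 2.3.3, numpy 2.4.6) were tested on simulated data.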

Additional observations from a re-analysis of the deposited data

How the results depend on the processing

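With 1 array per group, no difference has a replicate check, and dim values (Cxcr2, S1pr1, Ccr9) are the least certain. No paired analysis was possible because each group has 1 array, and leaving out a replicate was not possible either. Of the 8 receptors, 5 were lower as reported; with the floor at the 75th percentile 2 were lower (Cxcr4 and Ccr2) and 0 were 2-fold apart, because fewer genes then exceed the floor, and the receptors' median was 0.00. A floor at the 25th percentile, or none, left 6 lower, Ccr7 joining at -0.35. After quantile normalization 0 receptors were 2-fold apart (Cxcr2 at -0.94), and with a threshold of 1.5-fold 2 were (Cxcr2 and Ccr9). Ccr9 came to -0.15 with the mean over its probe sets and 0.00 with single-transcript probe sets. The receptors' median otherwise ran from -0.32 to -0.14. Over all genes, the 125 genes at least 2-fold apart became 1227 with the floor at the 25th percentile, 23 at the 75th, 3449 with no floor, 75 with the mean over probe sets and 625 at 1.5-fold. Of these 125 genes 76% were lower, of 115 after quantile normalization 53%, and with no floor 57.3%. No receptor changed direction in these settings, though a lower floor cannot move a receptor already above it, and the probe set rules cannot move a receptor with a single probe set.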
